A study of Homo sapiens with 2 samples.

Results

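Transcripts of 55 genes of DNA replication and deoxynucleotide synthesis were compared between A549 cells grown as a monolayer and as spheroids. The 55 genes were listed by function, with earlier results of these data known, so their counts are a description. Of these genes, 23 serve the licensing and firing of origins, 27 the polymerases and the replication fork, and 5 deoxynucleotide supply. Each was found through the array annotation and read from its brightest probe set (by mean log2 signal), which gave 55 of the 19775 genes measured. A549 is a human lung adenocarcinoma cell line. The monolayer cells were attached and grown in DMEM with 10% FBS, and the spheroid cells were kept unattached in DMEM/F12 without serum, to which N2 supplement was added along with bFGF at 10 and EGF at 20 ng/ml. Both were harvested at day 12, and total RNA was measured with 1 array (Affymetrix U133 plus 2.0) for each culture. Serum, growth factors, supplement, base medium and attachment therefore all differed between the cultures and cannot be told apart.

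Before S phase, the origin recognition complex, CDC6 and CDT1 place the MCM2-7 helicase on DNA, a step called licensing. Kinases then convert it with CDC45 and GINS into the active helicase, and polymerases with the PCNA clamp, its RFC loader and the RPA proteins copy the strands. Ribonucleotide reductase and thymidylate synthase supply the deoxynucleotides, and the transcription of many of these genes is known to be periodic, driven by E2F factors in cells that enter S phase.

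Signals are linear intensities scaled by the authors to the same trimmed mean of 500.1 on each array. A signal below the array's own median, 108 in monolayer and 119 in spheroid culture, was treated as at the floor, and 13229 genes were above it in at least 1 culture. Their median log2 ratio of spheroid over monolayer was 0.04 and its quartiles were -0.33 and 0.39. With 1 array per culture there is no replicate error and no test, so counts are given at 3-fold, a set limit, with 2-fold beside it. The error available is the disagreement between probe sets of a gene, which is technical: the log2 ratios of the 2 brightest probe sets above the floor in both cultures differed with an SD of 0.50 over 5453 genes.

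Markers of the cell line were read without another line beside them, so they do not tell lines apart. All 12 measured genes of 13 on the A549 and epithelial list were above the floor. Their summed signal was 378467 and 366571 in monolayer and spheroid culture. KRT18 had 50068 and 39147 and AKR1B10 had 54097 and 69583, while EPCAM was dimmer at 213 and 302. Of 7 measured alveolar type II markers 5 were above the floor in at least 1 culture. SFTPC, SFTPD and NAPSA among them were at the floor in monolayer, so that their higher spheroid signals give bounds under 3-fold, and without a floor these 3 were over 3-fold higher. The list had a summed signal of 1199 and 1999.7, and NKX2-1, a defining factor of that lineage, was at the floor in both. A free-text label on both samples names a hepatoma line, Huh7, and a compound, PGG, neither of which is in their titles, cell line field or protocols. Of 11 measured hepatocyte and hepatoma markers, 7 were above the floor in at least 1 culture and all 7 were higher in spheroid culture, with a summed signal over the list of 2419 and 15513. ALB was at the floor in monolayer and at least 42.9-fold higher in spheroid culture, and GPC3 was at the floor in both. Among leukocyte markers PTPRC was at the floor in both and CD14 was at least 3.66-fold lower in spheroid culture. The summed leukocyte signal was 1112 and 671, and that of fibroblast and endothelial markers 1449 and 1386. The part of these markers in the results on replication genes was not tested.

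Replication and nucleotide genes were lower in spheroid culture nearly throughout. All 55 were above the floor in monolayer, and 54 had a lower signal in spheroid culture, where 47.2% of the genes above the floor were lower. The one exception was RFC1. At least 3-fold lower were 26 of the 55 (47.3%), beside 2.11% of genes above the floor, and at least 2-fold lower were 44 (80%), beside 5.5%. None of the 55 was 3-fold or 2-fold higher, where 2.34% and 6.86% of all genes were. The median log2 ratio of the 55 was -1.55, a 2.92-fold lower signal, and the quartiles were -2.00 and -1.12. In RNA of whole cultures, fewer cells in S phase and less RNA of these genes per cell cannot be told apart.

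**Figure D1:**
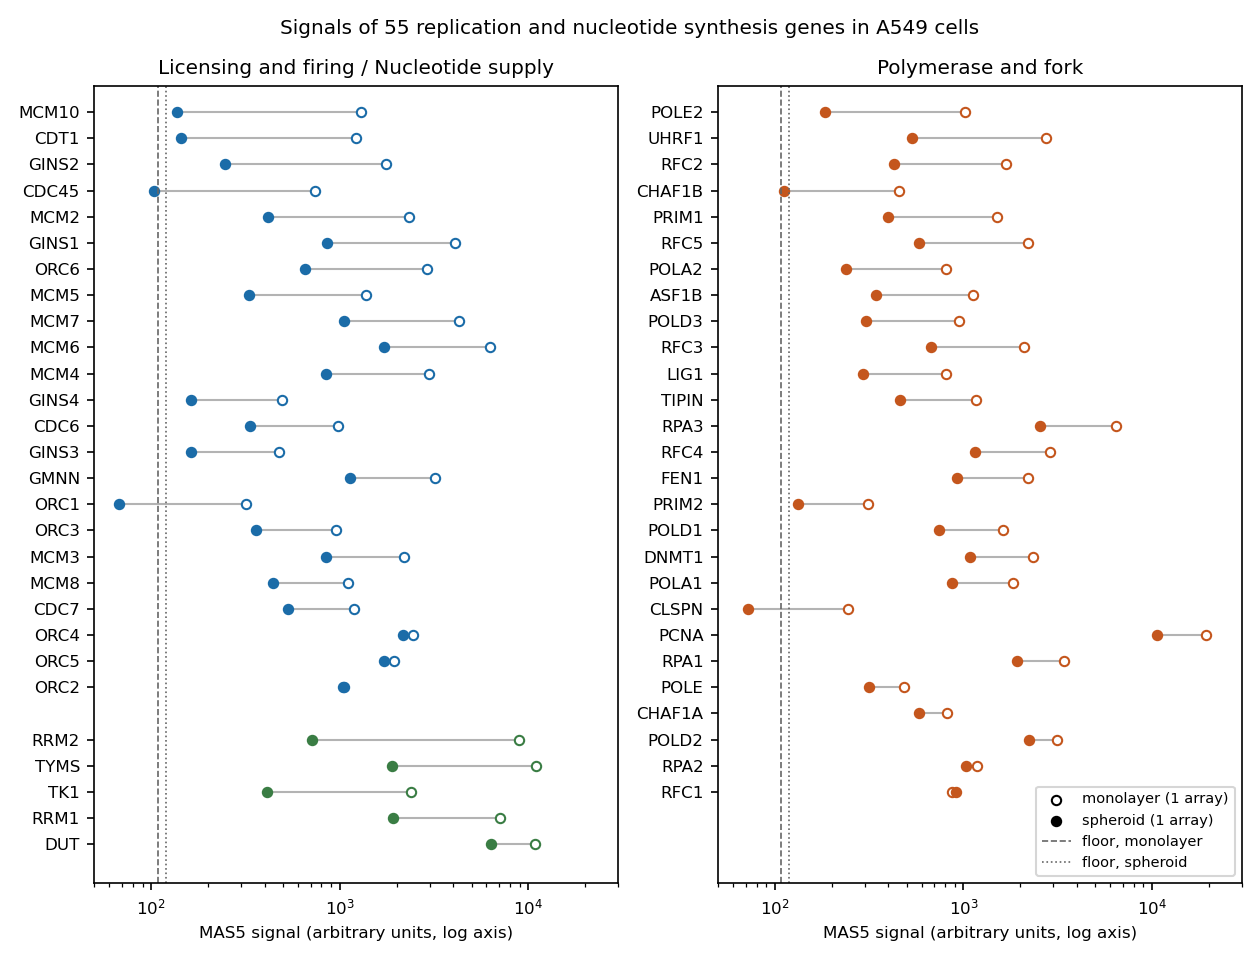
Signal of each of the 55 genes in monolayer (open points) and spheroid culture (filled points) on a log10 axis, by role, 1 array per culture, with the floor of each array (108 and 119) as a vertical line. The filled point lies left of the open point for every gene but RFC1, and 4 filled points (CDC45, ORC1, CLSPN and CHAF1B) lie below the spheroid floor.

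The 6 subunits of the MCM2-7 helicase, the ring that unwinds DNA ahead of the fork, were all lower, 5 of the 6 by 3-fold or more, with a median log2 ratio of -1.95. MCM2 had a monolayer signal of 2341 and a spheroid signal of 416, 5.63-fold lower, and signals are given in this order, monolayer first, from here on. MCM5 had 1372 and 331, 4.15-fold lower, and MCM7 had 4304 and 1059, 4.06-fold lower. The remaining subunits were lower by less. MCM6 had 6246 and 1707, 3.66-fold lower. MCM4 had 2973 and 846, 3.51-fold lower, and its 4 probe sets above the floor gave log2 ratios between -2.09 and -1.81. MCM3 had 2189 and 848, 2.58-fold lower, the smallest difference of the ring. The second probe sets of MCM5 and MCM7 gave smaller log2 differences of -0.85 and -1.34, below 3-fold, and that of MCM6 was at the floor in spheroid culture, which gives only a bound.

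The promoters of the helicase genes were read because E2F-type sequences, the letters bound by the E2F factors of S-phase entry, are common in this family. Promoters were taken as 250 bases before to 50 after the RefSeq start on GRCh38.p14, and searched on both strands for TTTCCCGC, TTTGGCGC, TTTCGCGC and TTTGCCGC. MCM4 and MCM5 had no promoter in the table. All 4 MCM2-7 promoters there held a match, beside 4.86% of other genes above the floor. MCM2 had 2 matches, MCM3 had 2, MCM6 had 4 and MCM7 had 2. Overlapping matches on the opposite strands of a palindrome were each counted. Shown are 60 bases around the first match of each, on the gene's own strand, with the matched letters in capitals. They lie at chr3:127598387-127598446, plus strand for MCM2, chr6:52284883-52284942, minus strand for MCM3, chr2:135876562-135876621, minus strand for MCM6 and chr7:100101551-100101610, minus strand for MCM7.
MCM2: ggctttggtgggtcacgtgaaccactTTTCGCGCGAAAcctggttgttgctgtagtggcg
MCM3: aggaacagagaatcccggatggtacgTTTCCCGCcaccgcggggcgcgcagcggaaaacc
MCM6: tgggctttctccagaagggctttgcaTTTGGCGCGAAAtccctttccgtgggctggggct
MCM7: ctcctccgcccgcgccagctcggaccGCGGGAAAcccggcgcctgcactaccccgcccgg
The first matched letter lies 3 bases after the start of MCM2, and 174, 152 and 187 bases before that of MCM3, MCM6 and MCM7. MCM2 and MCM6 carry an unbroken pair of overlapping matches, and MCM3 and MCM7 a single one in the stretch shown.

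The 2 loaders and the 3 firing factors of the helicase had lower medians than its subunits, -2.32 and -2.63. The first is the midpoint of CDT1 and CDC6, and the second is the value of CDC45, a bound. CDC6 and CDC7, at -1.56 and -1.16, were lower by less than the helicase median of -1.95. MCM10, which is needed to activate the loaded helicase, had a monolayer signal of 1300.1 and a spheroid signal of 137. It was 9.46-fold lower, the largest difference among the licensing genes, and its other probe sets, at the floor in spheroid culture, gave bounds of -2.35 and -1.92. CDT1, the loader whose supply limits licensing, had 1216 and 144, 8.45-fold lower, and its second probe set gave -2.41. GMNN, which encodes geminin, the protein that binds and blocks CDT1, had 3215 and 1132, 2.84-fold lower. At the brightest probe sets the log2 difference of CDT1 exceeded that of its inhibitor by 1.57. With the floor at the 75th percentile CDT1 was at -1.31, a bound, and GMNN at -1.51. CDC6, which loads MCM2-7 together with CDT1, had 979.8 and 332, 2.95-fold lower.

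Of the other firing factors, CDC45 had a signal of 739 in monolayer and was at the floor in spheroid culture, at least 6.20-fold lower. CDC7, the kinase that activates the helicase, had 1192 and 533, 2.24-fold lower. The 4 GINS subunits, which complete the active helicase, were all lower, 3 of the 4 by 3-fold or more, with a median log2 ratio of -1.93. GINS2 had 1755 and 245, 7.16-fold lower, but its second probe set, with 140.0 and 178, gave a log2 ratio of 0.34, so that its probe sets disagree in direction. GINS1 had 4069 and 854, 4.76-fold lower. GINS3 and GINS4 came near the floor in spheroid culture. GINS3 had 477 and 163, 2.92-fold lower, and GINS4 had 495 and 163, 3.05-fold lower.

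The origin recognition complex was mixed, with a median log2 ratio of -0.80, 1 of its 6 subunits at least 3-fold lower and 3 at least 2-fold lower. ORC6 had 2887 and 657, 4.39-fold lower. ORC3 had 960.3 and 358, 2.68-fold lower, and ORC1 had 319 in monolayer and was at the floor in spheroid culture, at least 2.68-fold lower. ORC2, ORC4 and ORC5 lay between the quartiles of all genes. Their signals were 1056 and 1046 for ORC2, 2446 and 2171 for ORC4 and 1938 and 1727 for ORC5, differences of 1.01-, 1.13- and 1.12-fold. The log2 ratios of ORC2 and ORC6, subunits of one complex, lay 2.12 apart. A second probe set of ORC4 gave 0.34. MCM8, a helicase of the same family that acts in recombination, had 1101 and 445, 2.47-fold lower. Its dim second probe set, with 106 and 151, was at the floor in monolayer and gave a log2 ratio of 0.48 as a bound.

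Over all 23 licensing genes the median log2 ratio was -1.61, with 23 lower, 20 of them by 2-fold and 12 by 3-fold or more. The promoters of the extremes, MCM10 and ORC2, are given whole, with the CCAAT box, a sequence bound by the factor NF-Y, in capitals on either strand (ATTGG on the other). MCM10 lies at chr10:13161308-13161607, plus strand, and ORC2 at chr2:200963611-200963910, minus strand.
MCM10: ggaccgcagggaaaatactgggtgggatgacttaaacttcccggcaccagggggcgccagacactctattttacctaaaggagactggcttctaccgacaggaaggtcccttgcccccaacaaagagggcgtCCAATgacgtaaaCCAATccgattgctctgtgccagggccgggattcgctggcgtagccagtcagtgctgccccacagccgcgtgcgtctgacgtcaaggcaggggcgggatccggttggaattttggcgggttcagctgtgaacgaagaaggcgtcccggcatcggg
ORC2: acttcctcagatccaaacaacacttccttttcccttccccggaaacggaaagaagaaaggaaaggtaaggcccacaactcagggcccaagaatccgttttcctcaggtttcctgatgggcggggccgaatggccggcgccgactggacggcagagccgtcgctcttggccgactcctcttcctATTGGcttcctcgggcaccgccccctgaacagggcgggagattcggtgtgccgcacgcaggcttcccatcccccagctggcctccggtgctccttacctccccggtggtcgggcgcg
MCM10 held 2 CCAAT boxes, 118 and 105 bases before its start, and ORC2 held 1, 67 bases before. Neither held an E2F-type match by the letters searched.

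The clamp and its loader were lower apart from RFC1, with a median log2 ratio of -1.48 over 6 genes and 3 at least 3-fold lower. PCNA, the ring that holds the polymerases on DNA, remained bright in both cultures at 19219 and 10656, 1.80-fold lower. RFC2 had 1682 and 426, 3.95-fold lower. RFC3 had 2094 and 675, 3.10-fold lower, and RFC4 had 2876 and 1152, 2.50-fold lower. These small loader subunits thus spanned a range from 2.50- to 3.95-fold. RFC5 had 2188 and 582, 3.76-fold lower, but 1 of its 3 probe sets, with 843 and 806, gave -0.07 while another gave -2.24. RFC1, the large subunit, had 869 and 911, 1.05-fold higher, and its second probe set, with 1076 and 652, gave -0.72, so its direction is not settled by the array.

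The 9 listed subunits of the replicative polymerases were all lower, 4 of them by 3-fold or more, with a median log2 ratio of -1.23. The subunits POLD4, POLE3 and POLE4 were not among them and were counted with the other licensing and fork genes. Their log2 ratios were 0.20, -0.30 and -0.05, so that POLD4 was higher in spheroid culture. Polymerase alpha and its primase start each strand. PRIM1, the catalytic primase subunit, had 1501 and 399, 3.76-fold lower, and PRIM2, its partner, had 311 and 133, 2.35-fold lower. POLA2 had 812 and 239, 3.40-fold lower, with -0.23 at its second probe set, and the catalytic POLA1 had 1831 and 873, 2.10-fold lower. Within polymerase delta, which copies the lagging strand, the accessory subunit POLD3 had the larger difference. POLD3 had 943 and 303, 3.11-fold lower. The catalytic POLD1 had 1615 and 741, 2.18-fold lower, and POLD2 had 3146 and 2219.9, 1.42-fold lower. Polymerase epsilon, which copies the leading strand, differed most between its listed subunits. POLE2 had 1023 and 185, 5.55-fold lower, whereas the catalytic POLE had 483 and 316, 1.53-fold lower, a log2 gap of 1.86.

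Genes that finish and protect the new strands were lower by moderate amounts. FEN1, which trims Okazaki fragments, had 2202 and 919, 2.40-fold lower, and LIG1, which joins them, had 810.3 and 295, 2.75-fold lower. The 3 RPA subunits, which coat single-stranded DNA, held no gene at 3-fold. RPA3 had 6403 and 2537, 2.52-fold lower, RPA1 had 3418 and 1930.2, 1.77-fold lower, and RPA2 had 1186 and 1030.0, 1.15-fold lower. TIPIN, part of the fork protection complex, had 1167 and 459, 2.54-fold lower. CLSPN, which encodes the checkpoint mediator claspin, had 245 in monolayer and was at the floor in spheroid culture, at least 2.06-fold lower.

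The 5 genes that restore methylation and nucleosomes behind the fork had a median log2 ratio of -1.72, with 3 at least 3-fold lower. UHRF1, which brings DNMT1 to hemimethylated DNA, had a monolayer signal of 2736 and a spheroid signal of 534, 5.12-fold lower. DNMT1 itself had 2325 and 1079, 2.16-fold lower. ASF1B had 1124 and 342, 3.29-fold lower, and CHAF1B had 453 in monolayer and was at the floor in spheroid culture, at least 3.80-fold lower. CHAF1A, the large subunit of CAF-1, had 822 and 579, 1.42-fold lower at its brightest probe set, and its other probe sets above the floor gave larger log2 differences of -1.53 and, as a bound, -1.45.

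Over the 27 polymerase and fork genes the median log2 ratio was -1.32, with 26 lower, 20 of them by 2-fold and 10 by 3-fold or more. The promoters of the extremes, POLE2 and RFC1, are given whole, with E2F-type matches and CCAAT boxes in capitals. POLE2 lies at chr14:49688165-49688464, minus strand, and RFC1 at chr4:39366313-39366612, minus strand.
POLE2: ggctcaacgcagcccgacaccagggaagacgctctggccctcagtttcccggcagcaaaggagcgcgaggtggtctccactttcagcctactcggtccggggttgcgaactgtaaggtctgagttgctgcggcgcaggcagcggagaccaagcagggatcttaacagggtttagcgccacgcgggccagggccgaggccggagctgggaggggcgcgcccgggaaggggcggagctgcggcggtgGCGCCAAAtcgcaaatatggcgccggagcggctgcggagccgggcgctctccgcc
RFC1: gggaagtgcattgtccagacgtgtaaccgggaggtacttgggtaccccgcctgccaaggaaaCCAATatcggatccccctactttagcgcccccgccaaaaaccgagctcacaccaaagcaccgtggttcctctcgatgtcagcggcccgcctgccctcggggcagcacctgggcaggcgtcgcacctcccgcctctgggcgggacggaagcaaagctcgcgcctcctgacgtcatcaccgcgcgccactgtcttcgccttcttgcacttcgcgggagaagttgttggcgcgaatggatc
POLE2 held 1 E2F-type match, 5 bases before its start, and RFC1 held 1 CCAAT box, 188 bases before and no E2F-type match.

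The deoxynucleotide supply genes had the lowest median of the 3 role groups, a log2 ratio of -2.54 over 5 genes, 4 of them at least 3-fold lower. RRM2, the small subunit of ribonucleotide reductase made for S phase, had a monolayer signal of 8929 and a spheroid signal of 711. It was 12.6-fold lower, the largest difference among the 55, and ranked 23 from the lowest ratio among the 13229 genes. RRM1, the large subunit, had 7084 and 1913, 3.70-fold lower. TYMS, thymidylate synthase, which makes dTMP from dUMP, had 10971 and 1886, 5.82-fold lower. TK1, the cytosolic thymidine kinase that salvages thymidine, had 2377 and 409, 5.81-fold lower. The second probe sets of these 4 genes were lower too, at -3.55 for RRM2, -1.71 for RRM1, -1.79 for TYMS and -2.86 for TK1. DUT, the dUTPase that keeps uracil out of DNA, stood apart at 10818 and 6327, 1.71-fold lower, and its 3 probe sets lay between -0.88 and -0.48.

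The promoters of the extremes of this group, RRM2 and DUT, are shown with CCAAT boxes in capitals. RRM2 lies at chr2:10122489-10122788, plus strand, and DUT at chr15:48330845-48331144, plus strand, each at the first start listed for the gene.
RRM2: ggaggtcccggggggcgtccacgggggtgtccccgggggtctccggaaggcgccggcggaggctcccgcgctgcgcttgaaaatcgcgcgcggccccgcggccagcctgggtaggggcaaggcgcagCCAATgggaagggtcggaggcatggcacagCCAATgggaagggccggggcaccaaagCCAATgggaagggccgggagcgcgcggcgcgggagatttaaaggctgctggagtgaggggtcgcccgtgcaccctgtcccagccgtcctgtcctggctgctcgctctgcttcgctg
DUT: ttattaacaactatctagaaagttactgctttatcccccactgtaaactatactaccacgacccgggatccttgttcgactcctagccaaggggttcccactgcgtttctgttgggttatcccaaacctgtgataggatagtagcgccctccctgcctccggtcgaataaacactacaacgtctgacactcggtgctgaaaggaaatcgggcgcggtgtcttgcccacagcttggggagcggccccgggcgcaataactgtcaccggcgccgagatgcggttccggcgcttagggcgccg
RRM2 held 3 CCAAT boxes, 123, 93 and 66 bases before its start, and no E2F-type match. DUT held none of the motifs searched at this start, while another listed start held 2 E2F-type matches.

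The 55 genes have 103 probe sets, 90 of them above the floor in at least 1 culture, and 86 of the 90 were lower in spheroid culture. Of these, 62 were lower by 2-fold and 39 by 3-fold or more. Of the 27 genes with 2 or more probe sets above the floor, 23 had all of them lower and 4 had them in both directions, namely GINS2, MCM8, ORC4 and RFC1. Size was less settled than direction: the log2 ratios of the 2 brightest probe sets differed with an SD of 0.92 over 23 of these genes, with a median absolute difference of 0.32 beside 0.27 for all genes. For 28 genes a single probe set above the floor carries the value.

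**Figure D2:**
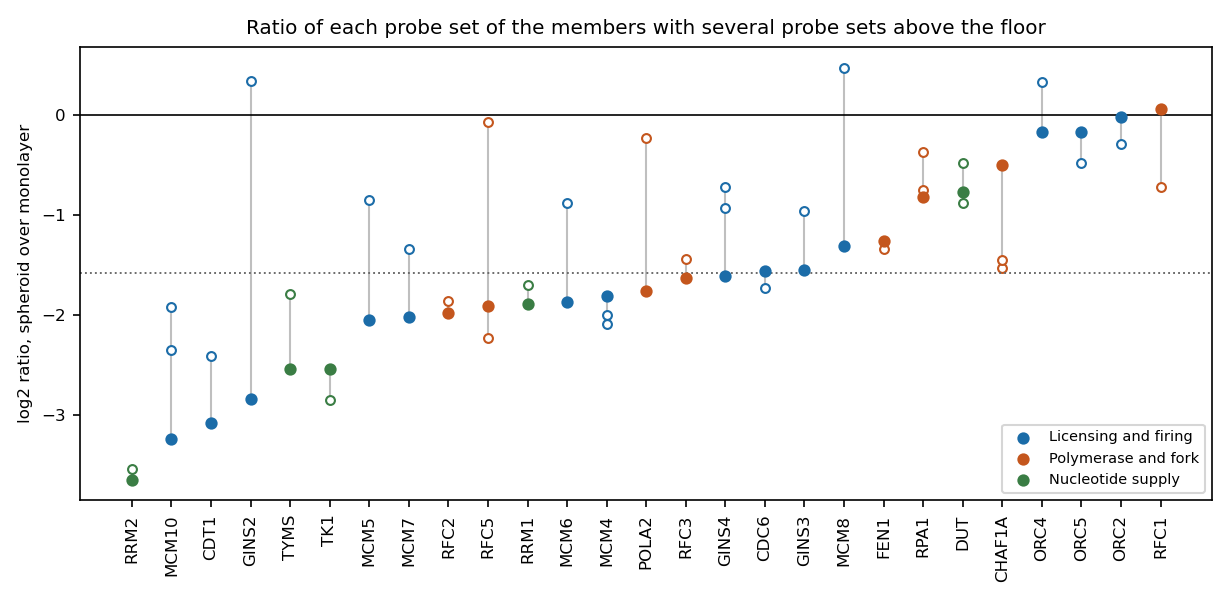
Log2 ratio of spheroid over monolayer for each probe set above the floor, for the genes with several such probe sets, with the probe set used for the gene filled. Most points lie below 0, and GINS2, MCM8, ORC4 and RFC1 have points both above and below it.

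Related genes that are not tied to S phase gave a contrast with several of these. They were picked as family partners after their values were seen. RRM2B, the small reductase subunit induced by p53, had 1641 and 2265, a log2 ratio 4.11 above that of RRM2. TK2, the mitochondrial thymidine kinase, had 933 and 1006, 2.65 above TK1. ASF1A, the sister chaperone of ASF1B, had 996 and 1261, 2.06 above it. These 3 partners had log2 ratios of 0.47, 0.11 and 0.34, within the probe set SD of 0.50, and probe sets of TK2 ran from -0.07 to 1.07. Their S-phase counterparts were at least 3-fold lower. TOP2B, the partner of TOP2A, was itself lower at -0.85. The gaps within these pairs are a description of 1 array per culture.

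Genes of the same pathway outside the 55 differed less as a group. Of 37 other licensing and fork genes above the floor, 32 were lower, 9 of them by 3-fold or more and none higher by 3-fold, with a median log2 ratio of -0.85. TOP2A, the topoisomerase that untangles replicated DNA, had 11691 and 541, 21.6-fold lower, and its paralogue TOP2B had 6818 and 3784, 1.80-fold lower. PCLAF, a PCNA-binding factor, was 9.33-fold lower, and DTL, which directs the destruction of CDT1, was 6.41-fold lower. DSCC1, ATAD2, RNASEH2A, WDHD1 and TIMELESS were 6.35-, 5.58-, 4.82-, 4.02- and 3.22-fold lower, TICRR at least 3.10-fold lower, and FAM111B was the highest at 0.99, with monolayer at the floor. Probe sets above the floor ran from -4.63 to -0.27 for TOP2A, from -3.27 to -0.64 for ATAD2 and from -1.69 to -0.28 for TIMELESS. Those of DTL ran from -2.68 to -2.54. The count of 9 genes was 6 with geometric means and 4 of 23 with the second brightest probe set. Of 15 other deoxynucleotide supply genes 2 were at least 3-fold lower, with a median of -0.48. These were NUDT1, which clears oxidised nucleotides, 4.59-fold lower, and DCK, deoxycytidine kinase, 3.16-fold lower. SAMHD1, which degrades deoxynucleotides, was the highest of that list at 0.62. Of 23 genes of purine, pyrimidine and folate synthesis, which also serve RNA, none reached 3-fold, while 2.11% of all genes were 3-fold lower. At least 2-fold lower were 6 (26.1%), beside 5.5% of all genes. Their median was -0.74 and they ran from MTHFD2 at -1.34 to UCK1 at 0.05. With the geometric mean 1 of 23 was at least 3-fold lower, and with the second brightest probe set 1 of 15.

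Regulators of S-phase entry and mitotic genes framed the replication genes on either side. Of 26 regulators above the floor 5 were at least 3-fold lower, with a median log2 ratio of -0.56. They were CCNA2, the S-phase cyclin, 8.55-fold lower, E2F7 and E2F8, repressive E2F factors, at least 5.76- and 3.88-fold lower, CDK2 3.56-fold lower, and MYC 3.03-fold lower. Other probe sets above the floor gave -3.49 for CCNA2, -0.12 for E2F7 and -1.61 for CDK2. CDKN1A, which encodes the CDK inhibitor p21, was the highest at 5589 and 9084, 1.63-fold higher. All 35 mitotic genes were at least 3-fold lower, from CDC20 at -4.66, a bound with spheroid culture at the floor, to KIF23 at -2.07, with a median of -3.46. This count was 28 of 35 with the floor at the 75th percentile, 31 of 35 with geometric means, 23 of 26 without _s_at and _x_at probe sets and 13 of 18 with the second brightest, and other probe sets gave 0.27 for KIF23 and 0.08 for AURKA. With the floor at the median all 35 lay below the median of the replication genes, and 12 of the 55, led by RRM2, lay below KIF23. Only RRM2 lay below the mitotic median.

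**Figure D3:**
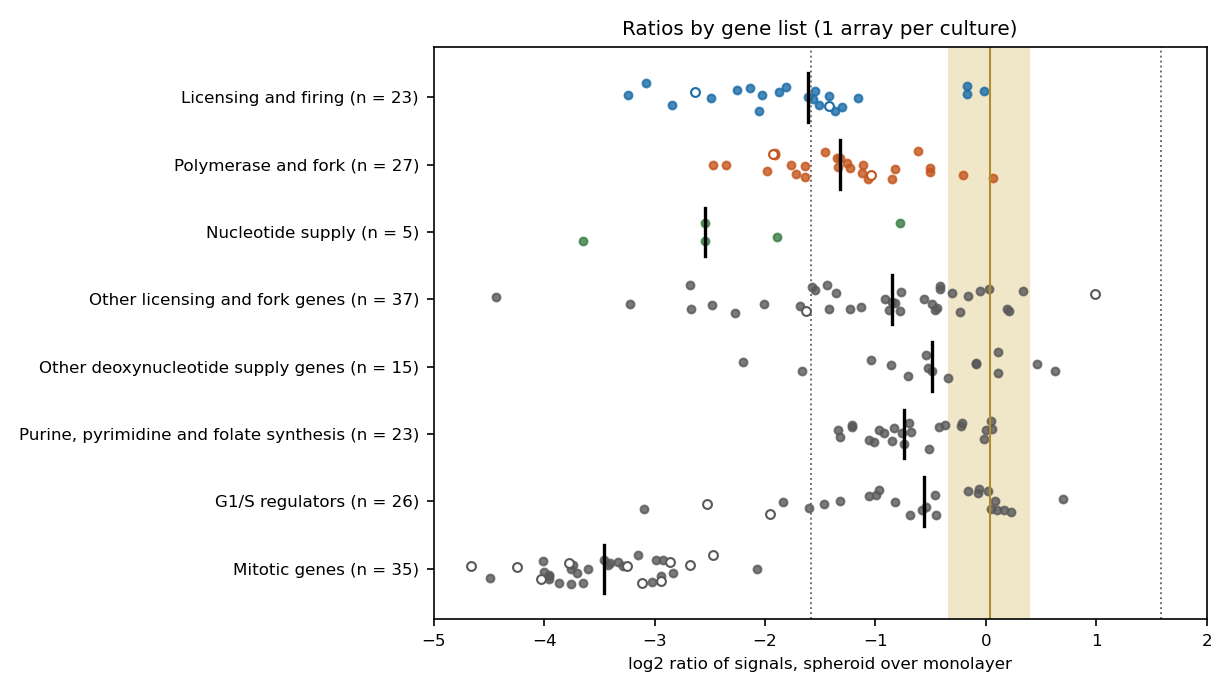
Log2 ratio of spheroid over monolayer for each gene above the floor, by role group and by related gene list, with list medians as bars, bounds with 1 culture at the floor as open points, and the range between the quartiles of all genes as a band. The 3 groups of replication genes (medians -1.61, -1.32 and -2.54) lie between the mitotic genes (-3.46) and the other lists (-0.85 to -0.48).

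Promoter sequences of 49 of the 55 genes were in the RefSeq table. MCM4, MCM5, GINS4, POLD3, RPA2 and RPA3 were not. At the first listed start, 22 of the 49 (44.9%) held an E2F-type match, beside 4.86% of 10660 other genes above the floor and 3.33% of all 27305 promoters of that length. Counting any listed start gave 26 (53.1%), beside 6.03% of the other genes. By role it was 11 of 20 licensing genes, 10 of 24 polymerase and fork genes, and 1 of 5 supply genes. The CCAAT box was in 28 of the 49 (57.1%), beside 36.1% of the other genes and 35.7% of all promoters. The Sp1-type GGGCGG was in 34 (69.4%), beside 67.9% and 44.6%, and the CHR element of mitotic promoters, TTTGAA or TTCGAA, in 3 (6.12%), beside 11.5% and 16.6%. All were searched on both strands, and a match is a description of the letters, not a site.

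Ratios of the 49 genes with a promoter overlapped between those with and without an E2F-type match. The 22 with a match had a median log2 ratio of -1.60 and ran from -3.08 to -0.61, and the 27 without had -1.35 and ran from -3.65 to 0.07. At least 3-fold lower were 11 of the 22 and 11 of the 27. RRM2 and MCM10, whose promoters are printed above, are among those without.

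**Figure D4:**
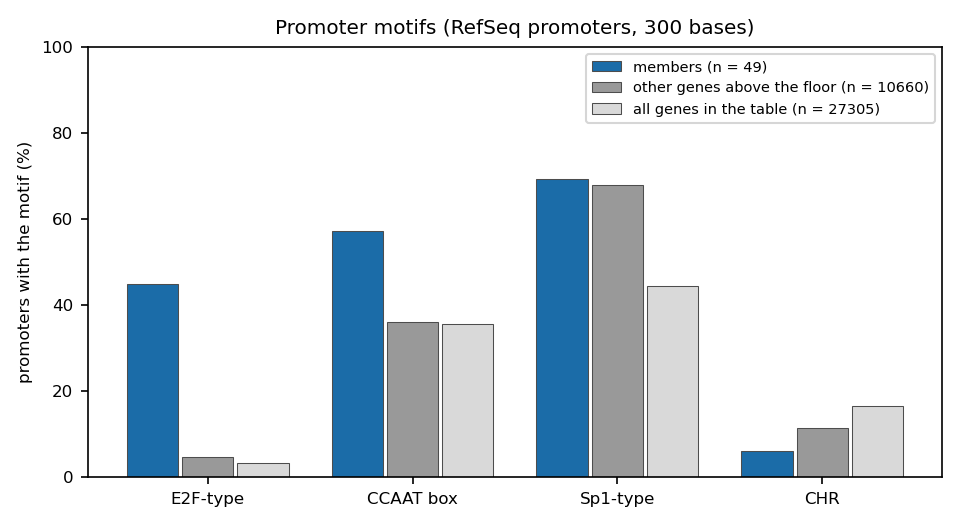
Share of promoters (percent) that hold each motif on either strand, for 49 replication and nucleotide genes, the other genes above the floor, and all promoters of the same length. The E2F-type share is 44.9% against 4.86% and 3.33%, and the Sp1-type share is 69.4% against 67.9% and 44.6%.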

How the data were processed

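RNA of 1 monolayer and 1 spheroid culture of A549 cells was measured on 1 array each. The deposited values are linear signal intensities, 1 per probe set; MAS5 and GCOS are the tools in the submitters' processing notes, without versions, and the authors' scaling gives both arrays a trimmed mean (2% off each end) of 500.1. No depth applies to arrays; their number limits the precision.

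Samples were mapped by their titles and growth protocols. No further scaling was done. Signals below the median of each array, without the 62 control probe sets, were raised to it (108 and 119), and the log2 ratio was taken with Python 3.11.15, numpy 2.4.6 and pandas 2.3.3. Of 54675 probe sets, 41097 have 1 gene in the platform annotation. For 41043 of these the current symbol was looked up by Entrez identifier, whether or not it had changed. The 1801 with several genes were left out, and the brightest probe set stood for a gene. A fold with spheroid culture at the floor is a bound. No test was run. Named with both signals were the genes at least 2-fold different and the lowest and highest of each subgroup, and of other lists the lowest, the highest and those at least 3-fold different, except that only the lowest and highest mitotic genes (with AURKA, chosen after its values were seen) and a few of the cell type markers are given, and that some genes of other lists are given by their fold alone. Family partners and the polymerase subunits POLD4, POLE3 and POLE4 were named as well. The members and lists were chosen with earlier results of these data known. The calculation was tested on simulated data. Alternatives were other floors, scalings, probe set choices and fold limits. Promoters came from RefSeq on GRCh38.p14, from 250 bases before to 50 after the first listed start.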

Additional observations from a re-analysis of the deposited data

How the results depend on the processing

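The count of 26 genes at least 3-fold lower was 28 without a floor, with the floor at the 25th percentile and after quantile normalization, 30 with arrays divided by their medians, 16 after raising the floor to the 75th percentile, 17 when all probe sets of a gene were averaged as a geometric mean, 17 of 41 when probe sets named _s_at or _x_at were left out, and 9 of 27 with the second brightest probe set. It was 44 at a 2-fold limit and 10 at a 5-fold limit. No gene was 3-fold higher under any of these. The median log2 ratio of the 55 was -1.22 with the 75th percentile, -1.69 with division by the median, -1.35 with the geometric mean, -1.42 without the _s_at and _x_at probe sets and -0.96 with the second brightest. In the same order the licensing median was -1.37, -1.75, -1.42, -1.42 and -0.86, and -1.81 without a floor and with the 25th percentile. The polymerase and fork median, again in that order, was -1.09, -1.46, -1.12, -1.34 and -1.04, and the supply median -2.27, -2.68, -1.80, -2.54 and -1.79. Division by the median moves the median of all genes from 0.04 to -0.10 and turns RFC1 lower at -0.07, as do the geometric mean at -0.17 and the second brightest at -0.72. GINS2 turned to 0.34 without the _s_at and _x_at probe sets and with the second brightest. MCM8 turned to 0.48, a bound, with the second brightest, and ORC4 to 0.34 under both and to 0.08 with the geometric mean. The values 0.34, 0.48 and 0.34 are those of the other probe sets of these genes. POLE turned to 0.03 with the 75th percentile, where its spheroid signal of 316 was raised to the floor. Why probe sets of a gene differ was not tested.

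No paired analysis was possible because each culture has 1 array. The dim genes, such as CDC45, ORC1, CLSPN and CHAF1B, have bounds set by the floor, and for 28 genes no second probe set above the floor checks the value.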

Other observations

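Of the 279 genes at least 3-fold lower in spheroid culture, 70 (25.1%) belonged to the replication and nucleotide genes (26), the mitotic genes (35) or the other licensing and fork genes (9). These lists hold 127 (0.96%) of the 13229 genes above the floor, and they were chosen with earlier results of these data known. Across the 55 genes the mean log2 signal and the log2 ratio had a Spearman rho of 0.16, given as a description over genes read from the same 2 arrays. Lineage markers moved in both directions. APOH, an apolipoprotein of hepatocytes, was 8.85-fold higher in spheroid culture and SERPINA1 at least 5.02-fold higher. CD14, a leukocyte marker, was at least 3.66-fold lower at its 1 probe set. Of the epithelial keratins, KRT7 was 3.75-fold lower at its brightest probe set and KRT19 was 4.64-fold higher. The 3 KRT7 probe sets above the floor ran from -1.91 to 0.08, so its direction is not settled by the array.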
